A study of Homo sapiens with 18 samples.

Results

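A group of 10 genes of the bone morphogenetic protein (BMP) pathway was followed across human mammary epithelial cells that carried Snail, Twist or an empty vector. They were the ligands BMP2, BMP4 and BMP7, the secreted antagonists GREM1 and NOG, the inhibitory SMAD6 and the target genes ID1, ID2, ID3 and ID4. The genes were chosen by symbol with earlier results of these data known, so counts among them beside shares of all genes are descriptive. All 10 of 10 were among the 18417 genes measured. Each was read by 1 probe set. Total RNA from 18 samples was measured on expression arrays in 6 groups of 3. These were HMLE with Snail, HMLE with Twist, HMLE with vector, MCF10A with Snail, arrays labelled MCF10A Twist, and MCF10A with vector. MCF10A is a breast epithelial line that became immortal spontaneously, and HMLE cells were immortalised by introduced telomerase and SV40 antigens. Stable clones were selected after transfection, and all groups, vector cells included, grew in the same serum-containing medium and were harvested in log phase. The labels give neither the number of clones behind a group nor the species of the constructs. Whether the 3 arrays of a group came from separate cultures is not stated either, so each p-value rests on a spread between arrays that may be technical only.

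BMPs are secreted ligands that bind paired type I and type II serine/threonine kinase receptors and lead to phosphorylation of SMAD1, SMAD5 and SMAD9. These enter the nucleus with SMAD4 and switch on target genes, of which the ID genes are the best known. ID proteins lack a DNA-binding region and pair with basic helix-loop-helix E proteins, which keeps the E proteins off DNA. Gremlin and noggin, the products of GREM1 and NOG, trap BMPs outside the cell, and SMAD6 blocks the pathway inside it. Snail (gene SNAI1) and Twist (gene TWIST1) drive epithelial-mesenchymal transition, in which epithelial cells lose their junctions. Twist is itself a basic helix-loop-helix factor that pairs with E proteins.

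The arrays were checked against their labels first. SNAI1 stood at 12.53 ± 0.01 in HMLE Snail and 12.49 ± 0.07 in MCF10A Snail arrays (log2 mean ± SD, n = 3), against 7.39 ± 0.14 with vector in HMLE and 8.32 ± 0.14 with vector in MCF10A. TWIST1 stood at 11.49 ± 0.14 in HMLE Twist and 10.99 ± 0.03 in the arrays labelled MCF10A Twist, against 9.69 ± 0.01 with vector in HMLE and 10.07 ± 0.09 with vector in MCF10A. It also stood at 10.81 ± 0.04 in HMLE Snail and 10.3 ± 0.07 in MCF10A Snail, so a raised TWIST1 level does not mark Twist arrays alone. MTAP, a gene of a chromosome 9 region that MCF10A cells have lost, went against the label of the arrays labelled MCF10A Twist. It stood at 10.8 ± 0.03 there, against 5.98 ± 0.36 in MCF10A vector arrays and 10.26 ± 0.04 in HMLE vector arrays. These 3 arrays are therefore called by their label throughout, and are set against both vector groups. The mean over 10 epithelial markers ranged over 8.59 to 8.62 in HMLE Snail, 7.61 to 7.69 in HMLE Twist, 11.14 to 11.19 in MCF10A Snail and 7.9 to 7.99 in the arrays labelled MCF10A Twist, against 12.44 to 12.49 with vector in HMLE and 11.58 to 11.62 with vector in MCF10A. All 10 fell in HMLE with either factor, and 5 of 10 fell in MCF10A with Snail. The mean over 12 mesenchymal and fibroblast markers ranged over 11.47 to 11.5, 11.41 to 11.48, 9.16 to 9.21 and 11.15 to 11.18 in the same Snail and Twist groups, against 8.73 to 8.79 with vector in HMLE and 8.57 to 8.67 with vector in MCF10A. The mean over 8 endothelial markers lay between 6.57 and 6.87 on every array. The mean over 7 leukocyte markers lay between 7.09 and 7.61, and of these PTPRC had group means between 4.59 and 5.23, while CD14 stood at 9.87 ± 0.13 in MCF10A Snail and 8.46 ± 0.02 in the arrays labelled MCF10A Twist, against 11.67 ± 0.05 in MCF10A vector arrays. CD68 went the other way, at 10.99 ± 0.13 in MCF10A Snail and 11.89 ± 0.1 in the labelled MCF10A Twist arrays, against 10.33 ± 0.13 with vector in MCF10A, and at 12.51 ± 0.03 in HMLE Snail and 12.52 ± 0.04 in HMLE Twist, against 11.79 ± 0.05 with vector in HMLE. Of the 7 leukocyte markers 2 rose and 1 fell in HMLE with Snail, in HMLE with Twist and in MCF10A with Snail, and 1 was higher and 2 lower in labelled MCF10A Twist against MCF10A vector. The part of these markers in the results below was not tested.

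In HMLE cells both factors were accompanied by less BMP4, NOG, ID1 and ID3 RNA and by more GREM1 and ID2 RNA. With Snail 6 of the 10 genes changed, where 47.7% of all genes passed the same test in either direction: 2 rose, against 22.9% of all genes, and 4 fell, against 24.8%. All 6 also changed at least 2-fold, which 8.88% of all genes did. With Twist 7 of 10 changed, against 43.7% of all genes: 2 rose, against 23.0%, and 5 fell, against 20.7%. BMP2 was the additional gene, and 4 of the 7 passed 2-fold, against 7.89% of all genes. In MCF10A with Snail 4 of 10 changed, against 22.7% of all genes: 1 rose, against 10.7%, and 3 fell, against 12.0%, with 1 of them past 2-fold, against 1.79%. In the arrays labelled MCF10A Twist 4 of 10 differed from MCF10A vector, against 50.4% of all genes: 3 were higher, against 26.5%, and 1 lower, against 23.9%, with 2 past 2-fold, against 10.5%. A gene is said to rise, fall or change where its adjusted p was under 0.05 in limma's test across all 18417 genes. Differences are log2 differences ± SE, and in bulk RNA fewer cells expressing a gene and less RNA per cell cannot be told apart.

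**Figure D1:**
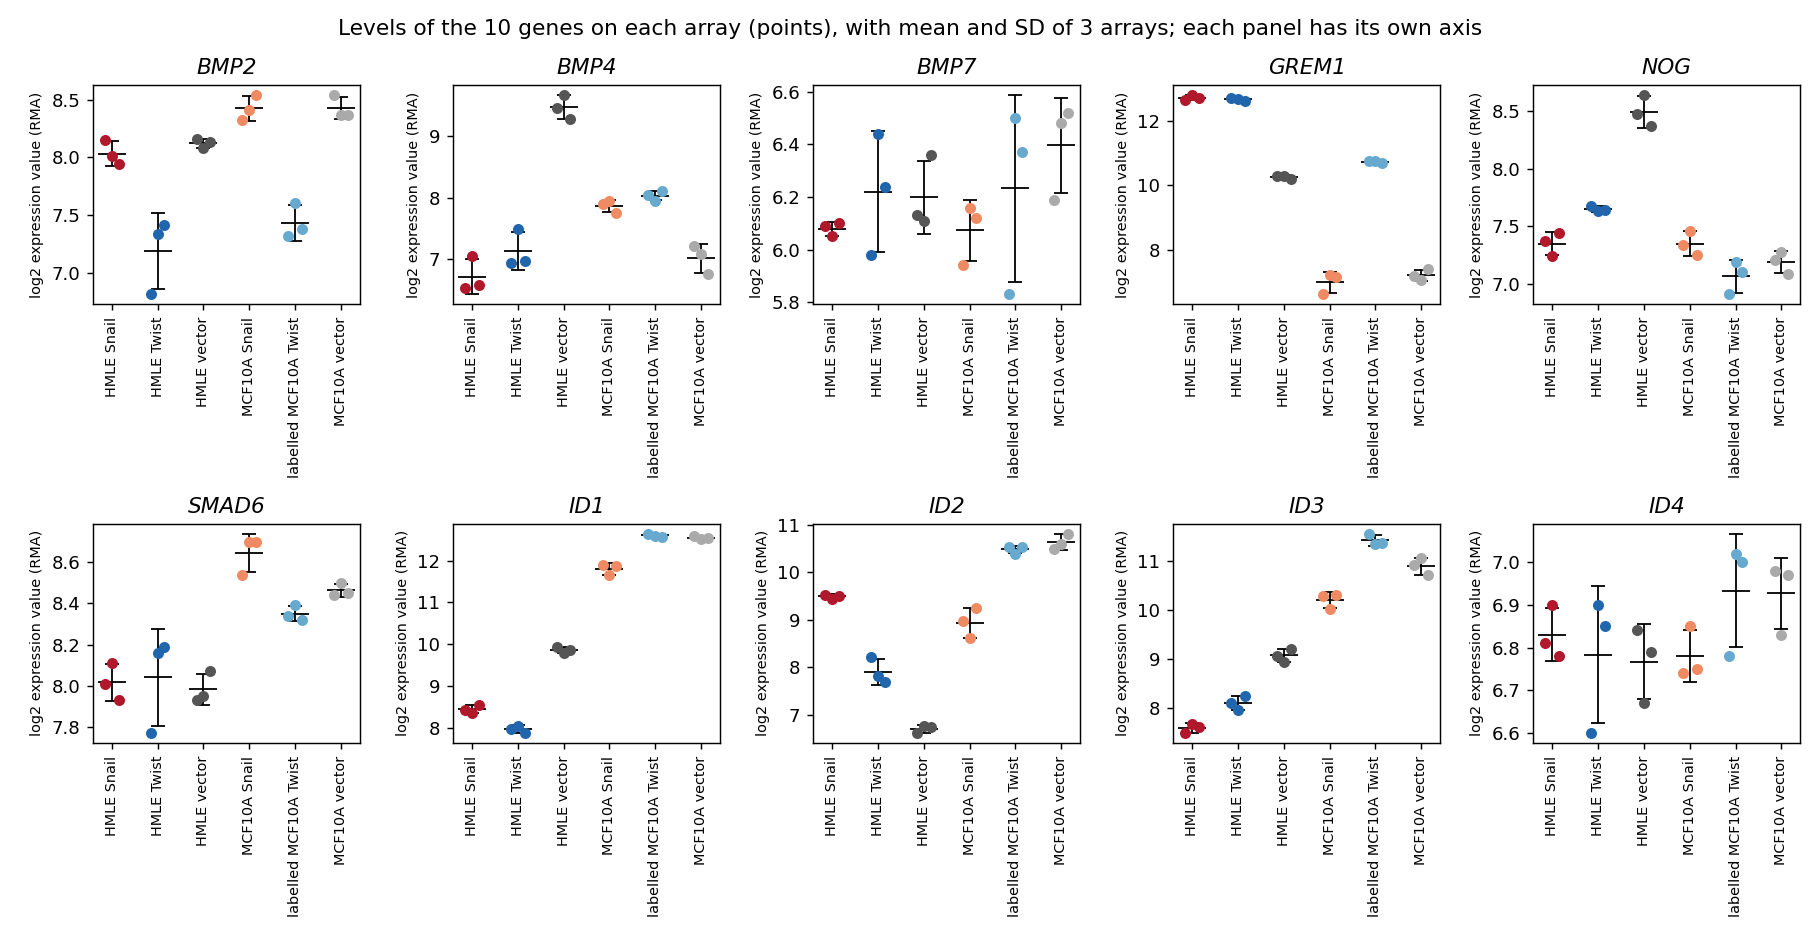
Log2 expression values of the 10 genes on all 18 arrays, 1 panel per gene with its own vertical axis and the 6 groups along the horizontal axis. Points are arrays, and bars are the mean and SD of 3 arrays. GREM1 lies near 12.7 in HMLE Snail and HMLE Twist arrays and near 7 in MCF10A Snail and MCF10A vector arrays, and ID4 keeps its group means between 6.76 and 6.93.

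Among the ligands BMP4 moved most. BMP4 stood at 6.53, 7.05 and 6.58 on the HMLE Snail arrays and at 6.94, 7.5 and 6.97 on the HMLE Twist arrays, against 9.46, 9.67 and 9.28 on the HMLE vector arrays. Every Snail and Twist array lay below every vector array. It fell by 2.75 ± 0.16 with Snail, or 6.72-fold (adjusted p = 2.13e-10), and fell by 2.33 ± 0.16 with Twist, or 5.04-fold (adjusted p = 2.19e-09). These comparisons share the HMLE vector arrays. In MCF10A the direction was the opposite. BMP4 stood at 7.9, 7.95 and 7.76 on the MCF10A Snail arrays and at 8.05, 7.95 and 8.11 on the arrays labelled MCF10A Twist, against 7.22, 7.08 and 6.76 on the MCF10A vector arrays. It rose by 0.85 ± 0.16 with Snail (adjusted p = 0.000846) and was 1.01 ± 0.16 higher in the labelled MCF10A Twist arrays (adjusted p = 3.79e-05), again with no overlap with vector. The difference of the Snail effect between lines, HMLE minus MCF10A, was -3.6 ± 0.23 (adjusted p = 1.43e-09). Against HMLE vector in place of MCF10A vector, BMP4 in the arrays labelled MCF10A Twist was lower, by -1.43 ± 0.16 (adjusted p = 8.17e-07), so its direction there depends on which vector arrays are used.

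BMP2, a ligand closely related to BMP4, fell with Twist and not detectably with Snail. It stood at 6.82, 7.34 and 7.42 on the HMLE Twist arrays and at 8.15, 8.01 and 7.94 on the HMLE Snail arrays, against 8.16, 8.08 and 8.13 on the HMLE vector arrays. The Twist arrays lay below all others of the line, while Snail and vector arrays overlapped. The fall with Twist was -0.93 ± 0.12 (adjusted p = 7.84e-06). With Snail the difference was -0.09 ± 0.12, with a 95% confidence interval of -0.35 to 0.17 (adjusted p = 0.621). Set directly against each other, BMP2 was higher in HMLE Snail than in HMLE Twist arrays by 0.84 ± 0.12 (adjusted p = 4.7e-05). In MCF10A Snail cells BMP2 differed from vector by 0 ± 0.12, with an interval of -0.26 to 0.26. On the arrays labelled MCF10A Twist it stood at 7.32, 7.61 and 7.38, against 8.54, 8.37 and 8.37 on the MCF10A vector arrays. It was lower there than in MCF10A vector by -0.99 ± 0.12 (adjusted p = 2.73e-06) and lower than in HMLE vector by -0.69 ± 0.12 (adjusted p = 0.000156), so this difference had the same sign against either line.

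BMP7, a ligand with roles in kidney development, had group means between 6.07 and 6.4 and passed the test in none of the 9 comparisons. Its difference of largest size, -0.32 ± 0.15 in MCF10A Snail against MCF10A vector, had an unadjusted p of 0.0444 and an adjusted p of 0.142. In that comparison the Snail arrays, at 5.94, 6.16 and 6.12, lay below the vector arrays, at 6.19, 6.48 and 6.52. RMA compresses differences at the dim end, and no detection call was used, so dim values here say nothing on whether a gene is off.

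GREM1, which encodes the antagonist gremlin, gave the widest range of the 10 genes, with 5.7 between its lowest and highest group means. GREM1 stood at 12.64, 12.79 and 12.69 on the HMLE Snail arrays and at 12.7, 12.67 and 12.61 on the HMLE Twist arrays, against 10.29, 10.3 and 10.19 on the HMLE vector arrays. The Snail and Twist arrays overlapped with each other and lay far above vector. It rose by 2.45 ± 0.12 with Snail, or 5.45-fold (adjusted p = 1.59e-11), and by 2.4 ± 0.12 with Twist, or 5.27-fold (adjusted p = 2.32e-11). Snail and Twist differed by 0.05 ± 0.12, with an interval of -0.2 to 0.3 (adjusted p = 0.831). In MCF10A, where the vector level was lower, GREM1 stood at 6.64, 7.22 and 7.17 on the Snail arrays, against 7.2, 7.07 and 7.41 on the vector arrays. These overlapped, and the difference was -0.22 ± 0.12, with an interval of -0.47 to 0.03 (adjusted p = 0.22). The Snail effect differed between lines by 2.67 ± 0.17 (adjusted p = 1.25e-09).

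On the arrays labelled MCF10A Twist GREM1 stood at 10.74, 10.76 and 10.68. That was 3.5 ± 0.12, or 11.3-fold, above MCF10A vector (adjusted p = 1.23e-13), but 0.47 ± 0.12 above HMLE vector (adjusted p = 0.00302). HMLE Twist arrays were higher still, by 1.93 ± 0.12 over the arrays labelled MCF10A Twist (adjusted p = 1.15e-09). HMLE vector lay 3.03 ± 0.12, or 8.18-fold, above MCF10A vector (adjusted p = 1.78e-12). The size of the rise on the labelled arrays thus depends on the vector arrays chosen, while the labelled arrays were higher against both.

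The GREM1 promoter is shown because this gene moved most across groups and its 250 bases before the start hold 3 matches to the motifs searched. The other window of GREM1 in the table holds none. The sequence comes from RefSeq (GRCh38.p14, chr15:32717754-32718003, plus strand), and capitals mark the motifs, which are a CAGACA 196 bases before the start and GGCGCC at 83 and 52 bases before it.
GREM1: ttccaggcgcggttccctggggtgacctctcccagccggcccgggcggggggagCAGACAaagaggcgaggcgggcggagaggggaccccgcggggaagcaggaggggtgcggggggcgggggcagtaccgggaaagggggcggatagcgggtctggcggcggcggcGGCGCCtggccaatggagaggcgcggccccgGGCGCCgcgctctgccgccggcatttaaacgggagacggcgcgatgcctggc
GGCGCC and CAGACA are letters that SMAD proteins are known to bind. Over all 35116 promoter windows of 300 bases in the same table, 19.2% hold GGCGCC and 16.9% hold CAGACA on either strand, so both are common.

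NOG, which encodes the antagonist noggin, went the other way from GREM1 in HMLE. It stood at 7.37, 7.24 and 7.44 on the HMLE Snail arrays and at 7.68, 7.63 and 7.64 on the HMLE Twist arrays, against 8.47, 8.64 and 8.37 on the HMLE vector arrays. All 3 groups were separate. NOG fell by 1.14 ± 0.09 with Snail (adjusted p = 5.31e-09) and fell by 0.84 ± 0.09 with Twist (adjusted p = 2.96e-07). It was lower with Snail than with Twist, by -0.3 ± 0.09 (adjusted p = 0.0114), and without HMLE Snail replicate 2 this difference was -0.25 and did not pass (adjusted p = 0.0628). In MCF10A Snail cells it stood at 7.34, 7.46 and 7.25, against 7.21, 7.28 and 7.09 with vector, a difference of 0.16 ± 0.09 with an interval of -0.02 to 0.34 (adjusted p = 0.211). The Snail effect differed between lines by -1.3 ± 0.12 (adjusted p = 1.59e-07). HMLE vector stood 1.3 ± 0.09 above MCF10A vector (adjusted p = 1.41e-09). The mean was 7.35 in HMLE Snail and 7.35 in MCF10A Snail. NOG was already dim in MCF10A vector, at a mean of 7.19, so a fall there may be compressed. The arrays labelled MCF10A Twist, at 6.91, 7.19 and 7.1, did not differ detectably from MCF10A vector (-0.13 ± 0.09, interval -0.31 to 0.05) and were lower than HMLE vector, by -1.43 ± 0.09 (adjusted p = 2.75e-10).

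SMAD6, which blocks BMP receptor signalling inside the cell and is itself induced by BMPs, did not pass in any of the 4 comparisons with the vector of the labelled line. In HMLE its difference was 0.04 ± 0.09 with Snail (interval -0.15 to 0.23) and 0.06 ± 0.09 with Twist (interval -0.13 to 0.25). HMLE Twist replicate 1 stood at 7.77, below the other two at 8.16 and 8.19, and without it the Twist difference was 0.19 and passed (adjusted p = 0.0309). In MCF10A Snail it was 0.18 ± 0.09 (interval -0.01 to 0.37, adjusted p = 0.176). SMAD6 was lower in HMLE vector than in MCF10A vector arrays, by -0.48 ± 0.09 (adjusted p = 0.000266). In the arrays labelled MCF10A Twist, at 8.34, 8.39 and 8.32, it was 0.37 ± 0.09 higher than in HMLE vector, at 7.93, 7.95 and 8.07 (adjusted p = 0.00227). HMLE Twist was lower than the arrays labelled MCF10A Twist, by -0.31 ± 0.09 (adjusted p = 0.0112), and without HMLE Twist replicate 1 by -0.18, which did not pass (adjusted p = 0.054). Fitted on the compared groups alone, the difference of -0.31 did not pass either (adjusted p = 0.0883).

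**Figure D2:**
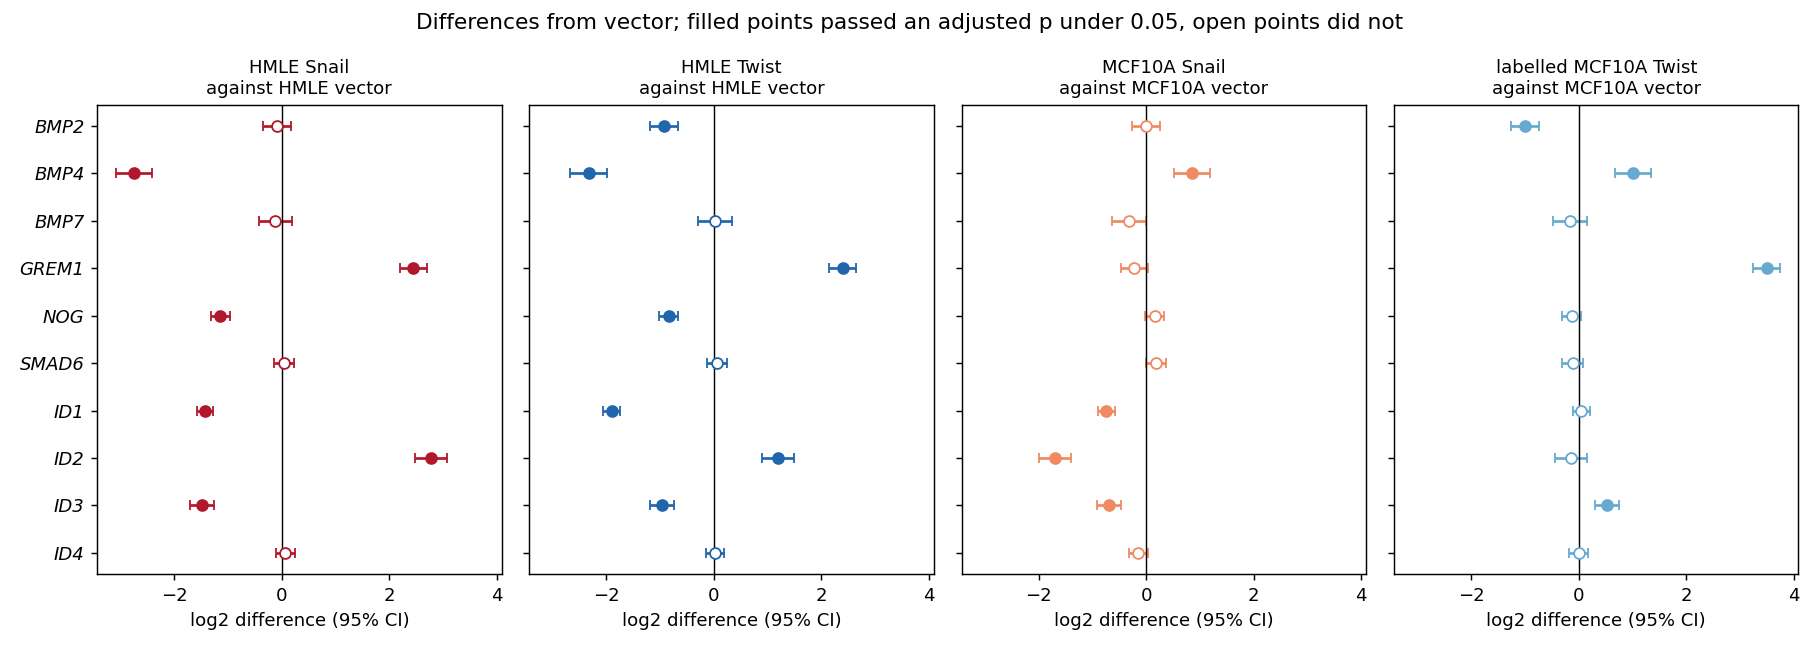
Log2 differences from vector (horizontal axis) for the 10 genes (vertical axis) in 4 comparisons, with 95% confidence intervals. Filled points passed an adjusted p under 0.05 and open points did not. In both HMLE panels BMP4, NOG, ID1 and ID3 lie left of 0 and GREM1 and ID2 right of it, and in the MCF10A Snail panel ID2 lies at -1.69.

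The ID genes split. ID1 and ID3 fell in HMLE with either factor and in MCF10A with Snail, ID2 rose in HMLE and fell in MCF10A, and ID4 passed in none of the 9 comparisons. ID1, an inhibitor of differentiation that is a direct BMP target, stood at 8.41, 8.36 and 8.55 on the HMLE Snail arrays and at 7.97, 8.05 and 7.87 on the HMLE Twist arrays, against 9.94, 9.8 and 9.85 on the HMLE vector arrays. All 3 groups were separate, with Twist lowest. ID1 fell by 1.42 ± 0.07 with Snail, or 2.68-fold (adjusted p = 3.92e-11), and fell by 1.9 ± 0.07 with Twist, or 3.73-fold (adjusted p = 9.15e-13). It was 0.48 ± 0.07 higher with Snail than with Twist (adjusted p = 6.31e-05). In MCF10A it stood at 11.91, 11.65 and 11.87 with Snail, against 12.6, 12.53 and 12.54 with vector, a log2 difference of -0.74 ± 0.07 (adjusted p = 9.61e-07). The fall was larger in HMLE, by -0.68 ± 0.1 (adjusted p = 4.49e-05).

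ID3, the closest of the 10 to ID1 in pattern, stood at 7.5, 7.68 and 7.63 on the HMLE Snail arrays and at 8.12, 7.97 and 8.25 on the HMLE Twist arrays, against 9.07, 8.95 and 9.22 on the HMLE vector arrays. Here Snail was lowest. ID3 fell by 1.48 ± 0.11 with Snail (adjusted p = 3.33e-09) and fell by 0.97 ± 0.11 with Twist (adjusted p = 8.07e-07). It was lower with Snail than with Twist by -0.51 ± 0.11 (adjusted p = 0.00119), the opposite order to ID1. In MCF10A it stood at 10.29, 10.03 and 10.32 with Snail, against 10.92, 11.06 and 10.71 with vector, a log2 difference of -0.69 ± 0.11 (adjusted p = 0.000131). The Snail effect on ID3 was larger in HMLE, by -0.79 ± 0.15 (adjusted p = 0.000383).

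ID2, the family member known for its part in mammary gland and lymphoid development, changed in opposite directions in the 2 lines. It stood at 9.53, 9.43 and 9.51 on the HMLE Snail arrays and at 8.22, 7.81 and 7.69 on the HMLE Twist arrays, against 6.62, 6.77 and 6.74 on the HMLE vector arrays. Snail was highest and vector lowest, with no overlap. ID2 rose by 2.78 ± 0.14 with Snail, or 6.87-fold (adjusted p = 3.35e-11), and by 1.2 ± 0.14 with Twist, or 2.29-fold (adjusted p = 1.92e-06). It was 1.59 ± 0.14, or 3-fold, higher with Snail than with Twist (adjusted p = 1.61e-07). In MCF10A it stood at 8.97, 8.61 and 9.24 on the Snail arrays, against 10.48, 10.59 and 10.81 on the vector arrays. It fell by 1.69 ± 0.14 there, or 3.22-fold (adjusted p = 1.41e-07). The Snail effect differed between lines by 4.47 ± 0.2 (adjusted p = 1.86e-11), the difference of largest size among the 10 genes.

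ID4 had group means between 6.76 and 6.93. Its differences from vector were 0.07 ± 0.08 in HMLE Snail (interval -0.11 to 0.24), 0.02 ± 0.08 in HMLE Twist (interval -0.15 to 0.19) and -0.15 ± 0.08 in MCF10A Snail (interval -0.32 to 0.03). Measured differences of the size seen for ID1, ID2 or ID3 lie outside these intervals. As RMA compresses differences at the dim end, the intervals cannot say how much ID4 RNA itself changed. With quantile normalization ID4 passed in 4 of the other comparisons, at differences of 0.17 in labelled MCF10A Twist against HMLE vector (adjusted p = 0.0122), -0.14 in HMLE Twist against labelled MCF10A Twist (adjusted p = 0.0407), -0.18 in HMLE vector against MCF10A vector (adjusted p = 0.00866) and 0.19 for the Snail effect in HMLE minus that in MCF10A (adjusted p = 0.0408).

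**Figure D3:**
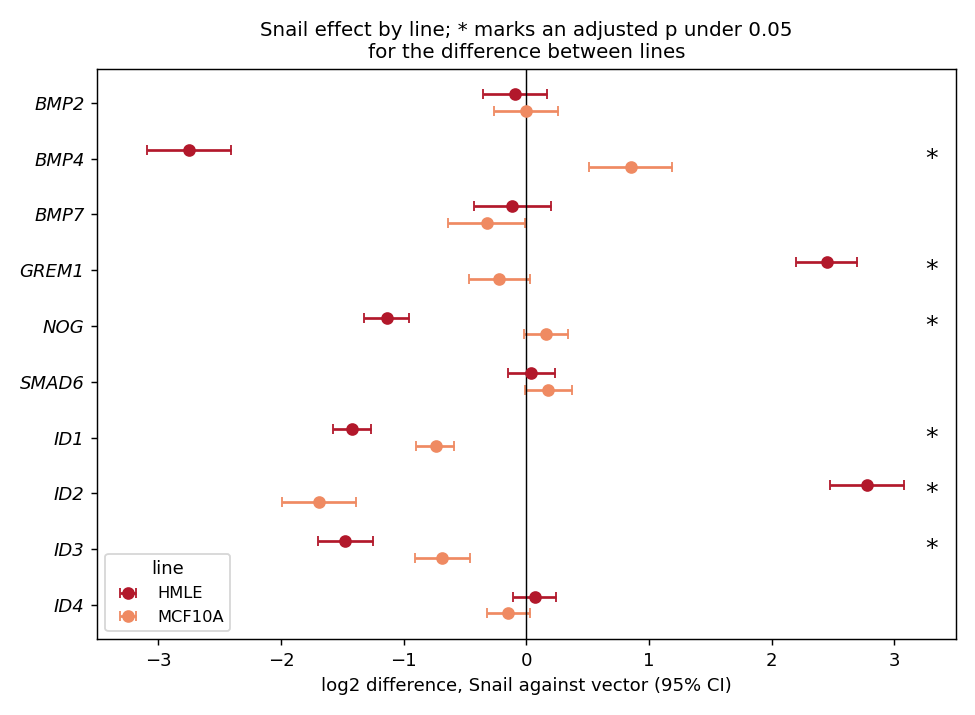
Log2 difference of Snail against vector (horizontal axis, 95% confidence intervals) for the 10 genes (vertical axis) in HMLE and in MCF10A. An asterisk marks an adjusted p under 0.05 for the difference between lines, which 6 of the 10 genes have. BMP4 and ID2 lie on opposite sides of 0 in the 2 lines.

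For the Snail effect between lines 6 of 10 genes passed, against 40.2% of all genes: the difference was positive for 2, against 19.9%, and negative for 4, against 20.2%. BMP4, NOG, ID1 and ID3 had the more negative effect in HMLE, and GREM1 and ID2 the more positive. BMP2 (-0.09 ± 0.17, interval -0.46 to 0.28), SMAD6 (-0.15 ± 0.13, interval -0.41 to 0.12), BMP7 and ID4 did not pass. The lines already differed with vector alone. In HMLE vector against MCF10A vector arrays 7 of 10 genes differed, against 44.0% of all genes: 3 were higher, against 23.4%, and 4 lower, against 20.6%, with 6 past 2-fold, against 6.35%. BMP4 was higher in HMLE vector by 2.45 ± 0.16 (adjusted p = 1.44e-09). ID1 was lower in HMLE vector by -2.69 ± 0.07, or 6.47-fold (adjusted p = 1.93e-14), ID2 by -3.91 ± 0.14, or 15.1-fold (adjusted p = 7.38e-13), and ID3 by -1.82 ± 0.11 (adjusted p = 3.47e-10). For ID2 the Snail arrays of the lines lay closer together than the vector arrays did, at means of 9.49 ± 0.05 in HMLE Snail and 8.94 ± 0.32 in MCF10A Snail, against 6.71 ± 0.08 in HMLE vector and 10.62 ± 0.17 in MCF10A vector (log2 mean ± SD, n = 3).

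The promoters of ID1, ID2 and ID3 are shown because these targets of one pathway did not move together. They come from RefSeq (GRCh38.p14) and are the 250 bases before each gene's start, with capitals for any of the motifs searched: ID1 at chr20:31605039-31605288 on the plus strand, ID2 at chr2:8681806-8682055 on the plus strand and ID3 at chr1:23559502-23559751 on the minus strand.
ID1: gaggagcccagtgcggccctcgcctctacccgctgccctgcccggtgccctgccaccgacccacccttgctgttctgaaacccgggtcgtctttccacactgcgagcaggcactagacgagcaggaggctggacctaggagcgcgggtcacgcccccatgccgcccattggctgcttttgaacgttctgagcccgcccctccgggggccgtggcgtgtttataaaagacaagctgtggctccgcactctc
ID2: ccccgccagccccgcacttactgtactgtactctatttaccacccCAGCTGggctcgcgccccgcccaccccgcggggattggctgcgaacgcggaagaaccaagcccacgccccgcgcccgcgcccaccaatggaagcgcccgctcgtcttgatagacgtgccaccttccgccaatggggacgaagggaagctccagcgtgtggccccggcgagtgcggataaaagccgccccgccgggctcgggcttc
ID3: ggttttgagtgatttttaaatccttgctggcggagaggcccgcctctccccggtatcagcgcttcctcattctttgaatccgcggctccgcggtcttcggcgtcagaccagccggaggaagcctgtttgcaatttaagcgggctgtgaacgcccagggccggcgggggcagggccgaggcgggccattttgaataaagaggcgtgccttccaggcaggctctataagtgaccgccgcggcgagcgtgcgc
The motifs were CAGGTG, the E-box that Snail binds, CANNTG, the general E-box of basic helix-loop-helix factors such as Twist, which includes CAGGTG, and the SMAD letters GGCGCC and CAGACA, each on both strands. The single match is a CAGCTG in ID2, 205 bases before the start, while the ID1 and ID3 windows hold none. None of the 10 windows of the 7 genes matched in the table (BMP4, GREM1, SMAD6 and the ID genes) holds CAGGTG, which 20.6% of all windows of 300 bases hold, and CANNTG is in 68.7% of all windows. No match says only that these letters are not in this window.

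On the arrays labelled MCF10A Twist ID1, ID2 and ID3 lay nearer to MCF10A vector than to HMLE vector. Their ID1 values, 12.65, 12.59 and 12.58, and ID2 values, 10.52, 10.39 and 10.53, overlapped MCF10A vector, at 12.6, 12.53 and 12.54 for ID1 and 10.48, 10.59 and 10.81 for ID2. The differences from MCF10A vector were 0.05 ± 0.07 for ID1 (interval -0.1 to 0.21) and -0.14 ± 0.14 for ID2 (interval -0.44 to 0.15). ID3, at 11.56, 11.34 and 11.37, was 0.53 ± 0.11 above MCF10A vector (adjusted p = 0.000436). Against HMLE vector 8 of 10 genes differed, against 49.2% of all genes: 5 were higher, against 25.2%, and 3 lower, against 24.0%. ID1 was then higher by 2.74 ± 0.07, ID2 by 3.77 ± 0.14 and ID3 by 2.34 ± 0.11 (adjusted p = 6.72e-15, 5.94e-13 and 7.26e-12). In HMLE Twist against the arrays labelled MCF10A Twist 7 of 10 genes differed, against 36.2% of all genes: 2 were higher, against 18.8%, and 5 lower, against 17.4%, with 4 past 2-fold, against 3.40%. ID1 gave the difference of largest size, -4.65 ± 0.07, or 25-fold lower in HMLE Twist (adjusted p = 8.3e-17), followed by ID3 (-3.31 ± 0.11) and ID2 (-2.57 ± 0.14). BMP2 did not pass there, at -0.24 ± 0.12 with an interval of -0.5 to 0.02 (adjusted p = 0.155), and did so without HMLE Twist replicate 3 (-0.35, adjusted p = 0.0439). TWIST1 was higher in HMLE Twist than on the labelled MCF10A Twist arrays, by 0.5 ± 0.07 (adjusted p = 1.34e-05).

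In HMLE Snail against HMLE Twist 5 of 10 genes differed, against 32.1% of all genes: 3 were higher, against 14.3%, and 2 lower, against 17.9%, with 1 past 2-fold, against 2.82%. ID2, BMP2 and ID1 were higher with Snail, and ID3 and NOG lower. BMP4 was at the edge, lower with Snail by -0.42 ± 0.16 (adjusted p = 0.0589), and it passed without HMLE Snail replicate 2 (-0.58, adjusted p = 0.0116), without HMLE Twist replicate 1 (-0.51, adjusted p = 0.036) and without HMLE Twist replicate 3 (-0.5, adjusted p = 0.0489). With all arrays kept, BMP4 also passed with quantile normalization (-0.42, adjusted p = 0.0393), trended and robust variance (-0.42, adjusted p = 0.0289) and array weights (-0.28, adjusted p = 0.011). HMLE Snail replicate 2 and HMLE Twist replicate 2 held the highest BMP4 value of their groups, 7.05 and 7.5.

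The other genes of the pathway were read from 6 lists, 79 of whose 83 genes were measured. The 79 include TWIST1, the factor introduced in the Twist groups, so its level in those groups is no finding about the pathway. In HMLE 26 rose and 20 fell with Snail, where 22.9% of all genes rose and 24.8% fell, and 26 rose and 22 fell with Twist, where 23.0% of all genes rose and 20.7% fell. In MCF10A 14 rose and 13 fell with Snail, where 10.7% of all genes rose and 12.0% fell. The arrays labelled MCF10A Twist had 24 higher and 21 lower than MCF10A vector, where 26.5% of all genes were higher and 23.9% lower. The medians over the 79 genes were 0.01, 0.03, -0.05 and 0.05 in these comparisons, beside -0.01, 0.02, -0.02 and 0.03 over all genes.

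Receptors changed in both directions. BMPR1B, a type I BMP receptor, fell by 1.52 ± 0.1 in HMLE with Snail and fell by 2.18 ± 0.1 with Twist (adjusted p = 1.42e-09 and 1.36e-11). It fell by 0.43 ± 0.1 in MCF10A with Snail (adjusted p = 0.00535), and on the labelled MCF10A Twist arrays it was lower than in either vector group, by -3 ± 0.1 against MCF10A vector (adjusted p = 1.48e-13) and by -2.24 ± 0.1 against HMLE vector (adjusted p = 8.06e-12). RGMB, a membrane-anchored BMP co-receptor, rose in HMLE by 1.87 ± 0.07 with Snail and 1.95 ± 0.07 with Twist (adjusted p = 6.85e-13 and 4.26e-13), and NEO1, the receptor that binds it, fell by 0.72 ± 0.08 with Snail and fell by 1.75 ± 0.08 with Twist (adjusted p = 1.51e-06 and 1.86e-11). ACVR1, another type I receptor, rose in HMLE with Snail by 0.66 ± 0.06 (adjusted p = 1.51e-07). With Twist in HMLE it stood at 10.09 ± 0.1, against 9.53 ± 0.02 with vector (log2 mean ± SD, n = 3). NEO1 was lower in MCF10A Snail arrays too, at 9.53 ± 0.07, against 10.26 ± 0.07 with vector in MCF10A. Of 11 receptors and co-receptors measured, 4 rose and 4 fell in HMLE with Snail, 4 rose and 3 fell with Twist, and 2 rose and 3 fell in MCF10A with Snail, where 47.7%, 43.7% and 22.7% of all genes passed in either direction.

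Among other secreted antagonists and modulators, FST, TLL1, CHRDL1 and FSTL1 moved most in HMLE. FST, which binds activins and more weakly BMPs, fell by 4.01 ± 0.12 with Snail and fell by 4.47 ± 0.12 with Twist (adjusted p = 3.45e-14 and 8.57e-15). CHRDL1, a chordin-like BMP antagonist, rose by 2.45 ± 0.1 and 3.33 ± 0.1 (adjusted p = 1.61e-12 and 2.87e-14). TLL1, a protease that cleaves chordin, fell by 2.8 ± 0.12 with Snail and fell by 3.64 ± 0.12 with Twist (adjusted p = 3.33e-12 and 1.1e-13), and FSTL1, a secreted follistatin-like glycoprotein, rose by 1.73 ± 0.06 and 2.17 ± 0.06 (adjusted p = 3.59e-13 and 1.85e-14). In MCF10A with Snail FSTL1 rose by 1.49 ± 0.06 (adjusted p = 2.79e-11), TLL1 rose by 0.54 ± 0.12 (adjusted p = 0.00309) and FST fell by 0.42 ± 0.12 (adjusted p = 0.0186). Of 17 genes in this list 5 rose and 3 fell in HMLE with Snail, 5 rose and 6 fell with Twist, and 5 rose and 1 fell in MCF10A with Snail, beside the same 47.7%, 43.7% and 22.7% of all genes. Of 12 other ligands 3 rose and 1 fell in HMLE with either factor. Of all genes 22.9% rose and 24.8% fell there with Snail, and 23.0% rose and 20.7% fell with Twist. GDF5 rose by 1.46 ± 0.12 in HMLE with Snail and by 0.67 ± 0.12 with Twist (adjusted p = 2.99e-08 and 0.000257), and BMP3 by 0.98 ± 0.11 with Snail (adjusted p = 9.6e-07). BMP6 stood lower, at 7.16 ± 0.08 in HMLE Snail and 6.76 ± 0.23 in HMLE Twist, against 7.5 ± 0.17 with vector in HMLE (log2 mean ± SD, n = 3). In MCF10A with Snail 0 of the 12 passed by limma, where 22.7% of all genes passed in either direction. Among the 12, BMP8B had an unadjusted p of 0.031 (-0.31, adjusted p = 0.109) and was named after its value was seen.

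**Figure D4:**
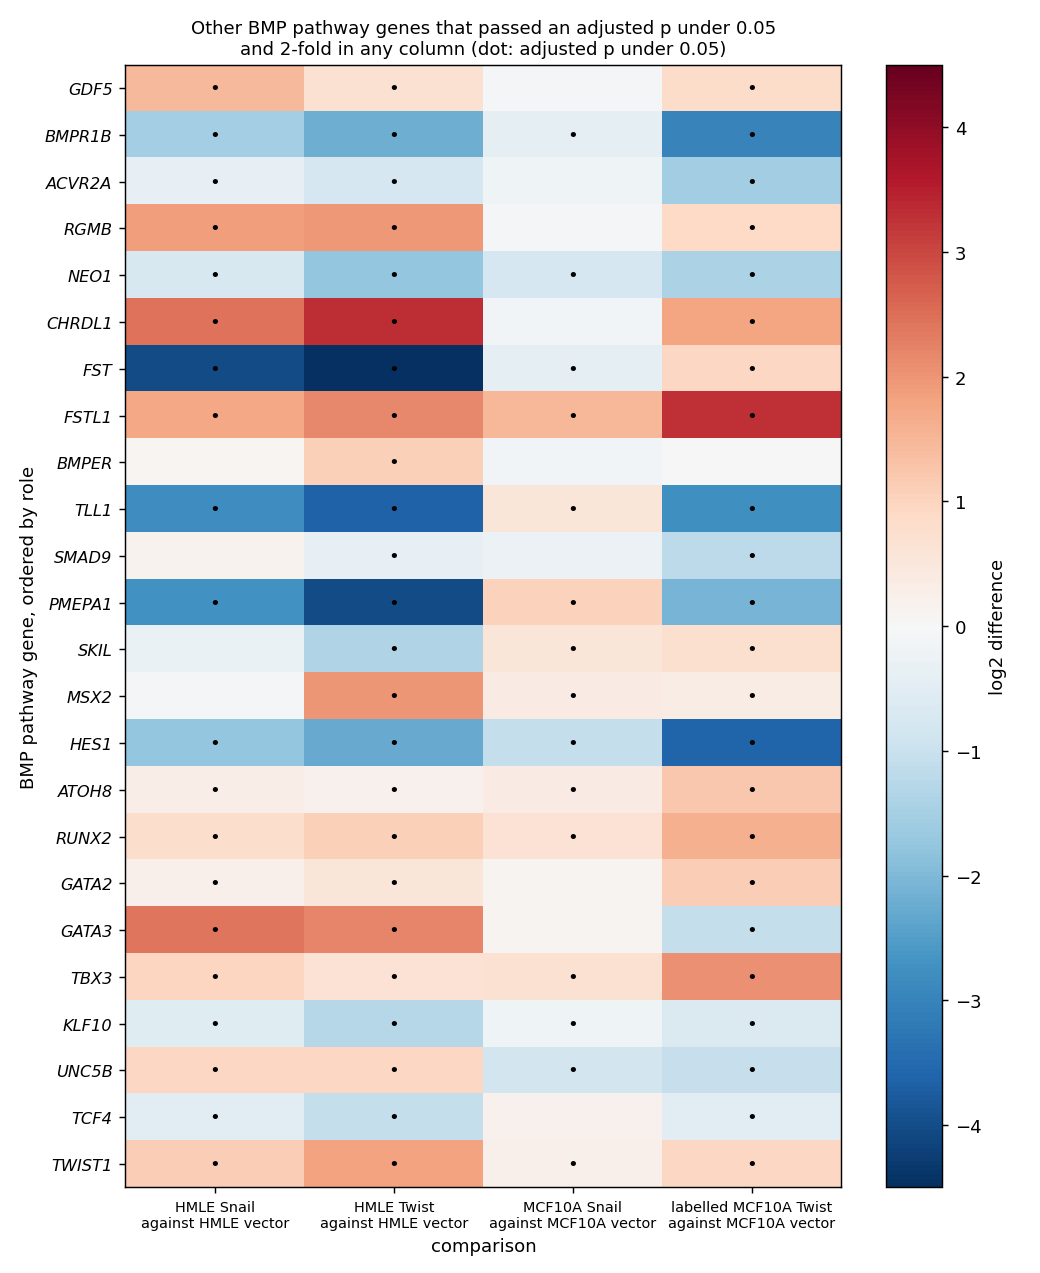
Log2 differences (colour, red higher and blue lower) of the 24 other pathway genes, of 83 listed, that passed an adjusted p under 0.05 and 2-fold in at least 1 of the 4 comparisons shown in columns. Rows are genes in order of role from ligands to helix-loop-helix partners, and a dot marks an adjusted p under 0.05. CHRDL1 and RGMB are red and FST, TLL1 and PMEPA1 blue in both HMLE columns, and PMEPA1 is red in the MCF10A Snail column.

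Of 16 SMADs and intracellular regulators 4 rose and 7 fell in HMLE with Snail, 3 rose and 9 fell with Twist, and 2 rose and 5 fell in MCF10A with Snail. Beside these, 22.9% of all genes rose and 24.8% fell in HMLE with Snail, and 23.0% rose and 20.7% fell with Twist. In MCF10A with Snail 10.7% rose and 12.0% fell. SMAD1, a carrier of the BMP signal, fell by 0.55 ± 0.06 in HMLE with Snail and fell by 0.76 ± 0.06 with Twist (adjusted p = 6.1e-07 and 1.1e-08). The carrier SMAD5 was not lower, at 11.42 ± 0.04 in HMLE Snail and 11.45 ± 0.08 in HMLE Twist, against 11.37 ± 0.09 with vector (log2 mean ± SD, n = 3). Nor was SMAD4, at 12.23 and 12.17 against 11.98 in the same groups. SKIL stood at 8.92 ± 0.12 in HMLE Snail and 7.85 ± 0.28 in HMLE Twist, against 9.21 ± 0.16 with vector. SMAD7, an inhibitory SMAD of the BMP and TGF-beta pathways, fell by 0.55 ± 0.11 with Snail and fell by 0.97 ± 0.11 with Twist (adjusted p = 0.000387 and 1.04e-06). PMEPA1, a membrane protein that limits SMAD signalling, fell by 2.74 ± 0.08 with Snail and fell by 4.01 ± 0.08 with Twist in HMLE (adjusted p = 3.1e-14 and 2.65e-16) and rose by 1.03 ± 0.08 in MCF10A with Snail (adjusted p = 7.66e-08). The Snail effect on PMEPA1 differed between lines by -3.77 ± 0.12 (adjusted p = 2.24e-13).

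Of 14 other genes known as BMP targets in some tissues, 8 rose and 3 fell in HMLE with Snail, 9 rose and 2 fell with Twist, and 4 rose and 4 fell in MCF10A with Snail. Of all genes 22.9% rose and 24.8% fell in HMLE with Snail, 23.0% rose and 20.7% fell with Twist, and 10.7% rose and 12.0% fell in MCF10A with Snail. GATA3, a luminal transcription factor, rose by 2.4 ± 0.07 with Snail and 2.18 ± 0.07 with Twist in HMLE (adjusted p = 2.59e-14 and 9.16e-14). MSX2, a homeobox gene, rose by 1.99 ± 0.11 with Twist (adjusted p = 1.18e-10), and it was lower with Snail than with Twist by -2.04 ± 0.11 (adjusted p = 3.24e-10). HES1, a target of Notch and in some cells of BMP, fell by 1.74 ± 0.11 with Snail and fell by 2.26 ± 0.11 with Twist in HMLE (adjusted p = 5.1e-10 and 1.7e-11), and fell by 1.07 ± 0.11 in MCF10A with Snail (adjusted p = 1.4e-06).

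Among 9 helix-loop-helix genes, the E protein gene TCF4 fell by 0.49 ± 0.1 with Snail and fell by 1.08 ± 0.1 with Twist in HMLE (adjusted p = 0.000729 and 1.51e-07). TWIST1 rose with Snail too, by 1.12 ± 0.07 in HMLE and by 0.24 ± 0.07 in MCF10A (adjusted p = 3.33e-10 and 0.0177). TWIST2, its close relative, rose by 0.48 ± 0.05 with Snail and 0.87 ± 0.05 with Twist in HMLE (adjusted p = 1.1e-06 and 6e-10).

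The genes most like a member in pattern were found from the 6 group means, each gene centred on its own mean, by the root-mean-square difference on the log2 scale. This was done for the 7 genes whose group means spanned at least 1, and is a description over 6 groups. For ID1 the nearest were BDKRB1 (0.32), DHRS3 (0.52) and ID3 (0.61), so that ID3 was the third nearest of all genes. For ID3 they were BDKRB1 (0.38), LRATD2 (0.46) and ANKRD18A (0.53). For ID2 they were IFITM1 (0.49), FBXO32 (0.64) and SMOC1 (0.68), for GREM1 TOX (0.55), FGF5 (0.57) and FRMD4A (0.64), and for BMP4 ABCG2 (0.33), TCF7L1 (0.35) and PLAU (0.39). The nearest to BMP2 was TGFBR2 (0.12) and the nearest to NOG was RADX (0.14), and no ID gene was among the 3 nearest to ID2.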

How the data were processed

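Biotin-labelled total RNA of 18 samples was measured on expression arrays. The authors deposited 1 value per array for each of 33297 probe sets. The submitters' processing notes name RMA, and the range of the deposited numbers shows a log2 scale. The RMA version, a genome build and joint normalization were not given in the sources used here. Array medians ranged over 7.698 to 7.793 and replicate correlations over 0.99 to 0.997, no columns were identical, and precision is limited by 3 arrays per group. Groups and replicate numbers came from sample titles. Probe sets with 1 symbol (19460) were named from the platform annotation and updated to GRCh38.p14 symbols by gene ID (19429 matched); 1754 had several symbols and 12083 were not listed. The probe set with the highest mean stood for a gene.

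Group means over all 18 arrays were fitted with limma 3.58.1 in R 4.3.3 (12 residual degrees of freedom, Benjamini-Hochberg over 18417 genes), and the script was tested on simulated data. Named genes were the 10, the label-check and marker genes, up to 4 called genes per pathway list with the largest changes, and the 3 nearest patterns. Members and lists were chosen with earlier results of these data known. The labels state no pairing. Deviations of same-numbered arrays from their group means correlated above 0.1 for every number in 1 comparison, HMLE Twist against labelled MCF10A Twist (0.64, 0.54 and 0.13), and the numbers may pair arrays there. The values printed come from the fit without a replicate block, and the block changed no call among the 10 in that comparison. Alternatives were other normalizations, variance models, array weights, probe set means, a filter at 6, subsets of groups, a replicate block, thresholds and left-out arrays. Figures were drawn with matplotlib 3.10.9.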

Additional observations from a re-analysis of the deposited data

Results flagged for a closer look

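The Snail effect differed between HMLE and MCF10A, by the difference of log2 differences in limma's fit, for 6 of the 10 genes. The value for ID2 was 4.47 ± 0.2 (adjusted p = 1.86e-11), from effects of 2.78 in HMLE and -1.69 in MCF10A. For BMP4 it was -3.6 ± 0.23 (adjusted p = 1.43e-09), from effects of -2.75 in HMLE and 0.85 in MCF10A. For GREM1 it was 2.67 ± 0.17 (adjusted p = 1.25e-09), from 2.45 in HMLE and -0.22 in MCF10A. For NOG it was -1.3 ± 0.12 (adjusted p = 1.59e-07), from -1.14 in HMLE and 0.16 in MCF10A. NOG was already dim in MCF10A vector, at a mean of 7.19, so a fall there may be compressed. ID1 and ID3 fell in both lines, and their differences were -0.68 ± 0.1 for ID1 (adjusted p = 4.49e-05) and -0.79 ± 0.15 for ID3 (adjusted p = 0.000383). Over all genes 40.2% passed the same test. Groups of 3 arrays were too small to test for a single array far from the others.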

How the results depend on the processing

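Of 1560 values of single genes under the alternatives, 1507 stayed on the same side of the threshold, 26 no longer passed, 27 newly passed, and none that passed changed sign. Signs of differences that passed neither way were not compared. The 2-fold limit and the limit of 0.01 reuse the main fit, so they could only remove calls and could not change a sign. Most of the 26 lost calls came from these stricter limits. With a 2-fold limit added, the genes called among the 10 were 4 in HMLE Twist against vector, 1 in HMLE Snail against Twist, 1 in MCF10A Snail against vector, 2 in labelled MCF10A Twist against MCF10A vector, 5 against HMLE vector and 4 in HMLE Twist against labelled MCF10A Twist. Over all genes the same limit left 1635 calls in HMLE Snail against vector, 1453 in HMLE Twist against vector, 519 in HMLE Snail against Twist, 329 in MCF10A Snail against vector, 1937 and 1657 in labelled MCF10A Twist against MCF10A vector and against HMLE vector, 627 in HMLE Twist against labelled MCF10A Twist, 1170 in HMLE vector against MCF10A vector and 1587 for the Snail effect between lines. At adjusted p under 0.01, MCF10A Snail against vector had 2742 calls, against 4173. With array weights, whose estimate stopped before converging, HMLE Snail against Twist had 8 calls among the 10 and 11184 over all genes, against 5 and 5921, and HMLE Twist against labelled MCF10A Twist had 12356, against 6660; the cause was not tested. With the replicate block BMP4 passed in HMLE Snail against Twist (-0.42, adjusted p = 0.0223) and BMP7 in MCF10A Snail against vector (-0.32, adjusted p = 0.0459); no other call among the 10 changed. Same-numbered arrays also correlated weakly, at 0.05 to 0.25 in HMLE Snail against Twist, 0.07 to 0.33 in MCF10A Snail against vector and 0.04 to 0.31 in labelled MCF10A Twist against MCF10A vector. Negative values occurred too, at -0.24, -0.52 and 0.03 in HMLE Twist against vector and -0.07, -0.22 and -0.03 in HMLE Snail against vector. They were -0.24, -0.44 and 0.17 in labelled MCF10A Twist against HMLE vector, and -0.05, -0.04 and 0.19 in HMLE vector against MCF10A vector. BMP2 in HMLE vector against MCF10A vector (-0.3, adjusted p = 0.0585) passed with quantile normalization, median centring, trended variance, array weights and the compared groups alone. ID4 passed with quantile normalization as given above, with array weights in labelled MCF10A Twist against HMLE vector (0.19, adjusted p = 0.00586) and in HMLE Twist against labelled MCF10A Twist (-0.14, adjusted p = 0.00247), and in labelled MCF10A Twist against HMLE vector without labelled MCF10A Twist replicate 1 (0.24, adjusted p = 0.0252). With array weights SMAD6 passed in HMLE Twist against vector (0.22), HMLE Snail against Twist (-0.18) and MCF10A Snail against vector (0.21). BMP7 passed with array weights in MCF10A Snail against vector (-0.31, adjusted p = 0.0227). It also passed in HMLE Snail against Twist (-0.16, adjusted p = 0.05 after rounding). Leaving out 1 array at a time gave 6 calls among the 10 in HMLE Snail against vector, 7 to 8 in HMLE Twist against vector, 5 to 6 in HMLE Snail against Twist, 4 in MCF10A Snail against vector, 4 in labelled MCF10A Twist against MCF10A vector, 8 to 9 against HMLE vector, 6 to 8 in HMLE Twist against labelled MCF10A Twist, 7 in HMLE vector against MCF10A vector and 6 for the Snail effect between lines. Over all genes the same left 8077 to 8285, 7370 to 8228, 5049 to 6037, 3203 to 3735, 8680 to 9049, 8336 to 8856, 5881 to 6830, 7410 to 7578 and 6839 to 7107 calls in that order. A fit of 15 arrays without those labelled MCF10A Twist, chosen after seeing the data, gave 6, 7, 5, 4, 7 and 6 calls in the comparisons that do not use them, as before. RMA values hold no detection calls, which limits what dim BMP7 and ID4 can show. Some group means of other genes were about as dim, such as 6.71 for ID2 in HMLE vector and 6.72 for BMP4 in HMLE Snail. Others were 7.01 for GREM1 in MCF10A Snail and 7.19 for NOG in MCF10A vector. The compression of dim values applies to fold values that use these means too.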
